A study of Mus musculus with 9 samples.

Results

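The genes described here encode the proteins of the cytosolic ribosome. They were taken from the annotation of the array by symbol: names of the form Rpl or Rps followed by a number, with or without a closing a, x, y or l, together with Rplp0, Rplp1, Rplp2 and Rpsa, and without the S6 kinases, whose symbols begin with Rps6k. A probe set, the group of short probes that measures 1 transcript, was used only where it names a single gene, and the brightest probe set over all 9 arrays stood for its gene. The rule gave 67 genes, 43 of the large and 24 of the small subunit, out of 17097 genes with such a probe set. They had 128 of the 45037 probe sets tested. A further 16 genes of the mouse reference whose symbols meet the rule were not analysed here, among them Rpl5, Rps27, Rpl10l and Rps4l.

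A ribosome translates mRNA with a small subunit, which reads the codons, and a large subunit, which joins the amino acids. Each is built of ribosomal RNA and a single copy of most of its proteins, so cells make these proteins in matched amounts, and their mRNAs are among the most abundant in neurons and glia alike. Most of these mRNAs start with a C followed by an unbroken run of C and T, the 5′ terminal oligopyrimidine tract, through which the mTOR pathway adjusts their translation, often with little change in mRNA level. The mouse genome also carries many processed copies of these genes, which can share probe sequence with them.

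Swiss Webster mice received saline, 1 mg/kg methylphenidate (MPH) or 10 mg/kg MPH by intraperitoneal injection, once daily on a school-day schedule for 3 months from 4 weeks of age, followed by a week without drug. MPH is a stimulant that blocks the dopamine and noradrenaline transporters. RNA of the substantia nigra, where the dopamine neurons of the nigrostriatal pathway lie, was measured on Affymetrix HT MG-430 PM arrays, with 3 arrays in each of the 3 groups. The labels name a mouse for each array and do not say whether animals were pooled. The MPH groups go by the doses in the deposited labels, as 1 mg/kg arrays and 10 mg/kg arrays. The study's lists of changed genes assign the 2 MPH groups to the doses the other way round, and the values do not settle which assignment is right. All values are log2 intensities, and all differences are on the log2 scale.

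The letters at the annotated start of transcription are shown for 6 genes that the results turn on or that serve as examples of a pyrimidine run across the start, and for 2 more in which another recurring motif lies at the start. They are RefSeq sequences of build GRCm38.p6, matched by symbol for 53 of the 67 genes, and each covers 30 bases with the annotated start at base 16. In the first 6, the longest run of at least 6 C or T is in capitals. The windows are chr17:24720048-24720077 (plus strand) for Rps2, chr10:23787195-23787224 (minus strand) for Rps12, chr3:130730323-130730352 (minus strand) for Rpl34, chr7:4792950-4792979 (plus strand) for Rpl28, chr17:33955651-33955680 (minus strand) for Rps18 and chr2:26910792-26910821 (plus strand) for Rpl7a.
Rps2: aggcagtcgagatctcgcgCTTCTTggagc
Rps12: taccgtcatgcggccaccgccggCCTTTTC
Rpl34: CCTTCCTTTTCCTCTTCCggggacggtgct
Rpl28: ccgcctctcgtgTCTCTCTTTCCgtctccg
Rps18: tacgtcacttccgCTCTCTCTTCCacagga
Rpl7a: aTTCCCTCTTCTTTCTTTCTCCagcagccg
In the other 2, the capitals mark CGGAAG, the reverse complement of CTTCCG, at chr4:136053379-136053408 (minus strand) for Rpl11 and chr11:68901551-68901580 (plus strand) for Rpl26.
Rpl11: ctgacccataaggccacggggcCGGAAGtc
Rpl26: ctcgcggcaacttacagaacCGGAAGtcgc

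A C followed by at least 4 further C or T began within 30 bases of a start, on the strand of the gene, in 47 of the 53 genes (88.7%) and in 64.1% of the 27025 genes of the reference. The letters CTTTCC, which include such a run, lay within 30 bases of a start on the strand of the gene in 8 of 53 (15.1%) and in 3.40% of all genes. CTTCCG, searched on both strands from 250 bases before the start to 50 after it and able to overlap the run, was present in 38 of 53 (71.7%) and in 18.8% of all genes. TATAAA was found on the strand of the gene in the 50 bases before a start in 0 of 53 and in 3.15% of all genes. A gene with several annotated starts was counted where any of them held the letters, and these matches describe the sequence alone.

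The ribosomal protein genes were among the most intense signals of the arrays. Of the 67, 63 had a mean of at least 9 and 61 of at least 11, with a median of 12.3, beside a median of 4.503 for all probe sets and 2.93 for control probe sets that match no transcript. The other 4 were Rps15a (6.98), Rpl14 (6.19), Rpl39l (3.58) and Rpl3l (3.04). The 9 values of a gene spanned 0.146 at the median, and 51 of 67 genes spanned less than 0.2. Rpl19 and Rps29 had the narrowest spans, 0.035 and 0.036. The widest were 1.18 for Rpl14 and 0.908 for Rps15a, both dim, followed by 0.552 for Rps2, which is bright.

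**Figure D1:**
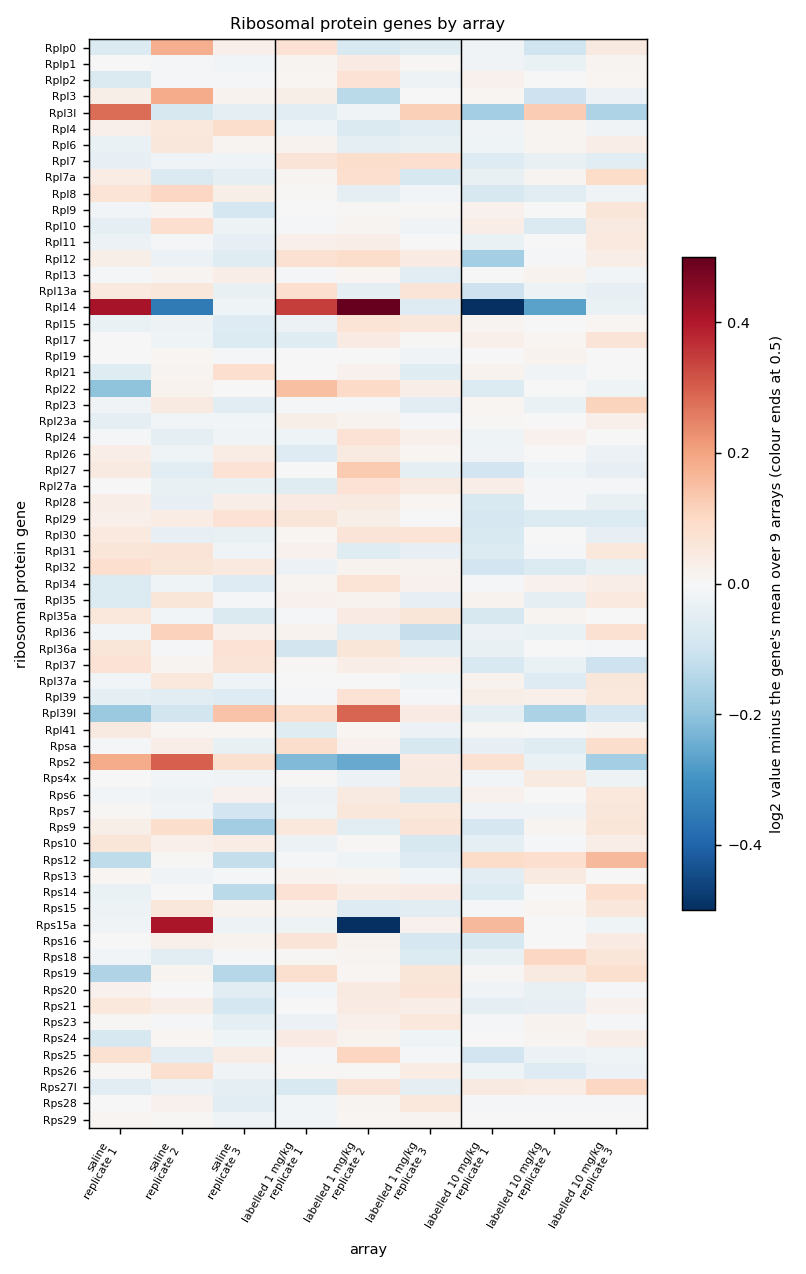
Heat map of the 67 ribosomal protein genes (vertical) over the 9 arrays (horizontal, saline, labelled 1 mg/kg and labelled 10 mg/kg MPH), coloured by the log2 value minus the mean of the gene over the 9 arrays. Most cells are near white, since 51 of 67 genes span less than 0.2, and the strongest colours lie in Rpl14 and Rps15a, with spans of 1.18 and 0.908.

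No ribosomal protein gene passed the test in any of the 3 comparisons. In the 1 mg/kg arrays against saline, 0 of 67 genes had an adjusted p of 0.05 or less (limma with Benjamini-Hochberg adjustment over all probe sets, lowest adjusted p = 0.436), and 0% of all probe sets did. At an unadjusted p of 0.05, 0 genes were higher and 1 was lower, Rps2, beside 4.53% and 5.77% of all probe sets. All 3 arrays of the group lay above all 3 saline arrays for 9 genes (13.4%, beside 10.7% of all probe sets) and below them for 5 (7.46%, beside 12.4%). The median difference was 0.012, beside -0.0046 over all probe sets. Over the brightest probe sets of all 17097 genes, chosen as for the members, the median was -0.021. Of these, 8.97% lay wholly above saline and 15.3% wholly below.

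In the 10 mg/kg arrays against the same saline arrays, 0 of 67 genes passed (limma, lowest adjusted p = 0.494), as did 0% of all probe sets. At an unadjusted p of 0.05, 1 gene was higher, Rps12, and 0 were lower, beside 4.08% and 5.51% of all probe sets. The arrays lay wholly above saline for 8 genes (11.9%, beside 10.3%) and wholly below for 8 (11.9%, beside 13.1%). The median difference was -0.0047, beside -0.0075 over all probe sets. Over the brightest probe sets of all 17097 genes the median was -0.020, with 8.75% wholly above saline and 15.8% wholly below.

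Between the MPH groups, 10 mg/kg against 1 mg/kg, 0 genes passed (limma, lowest adjusted p = 0.774), as did 0% of all probe sets. At an unadjusted p of 0.05, 0 were higher and 1 was lower, the dim Rpl14, beside 3% and 3.39% of all probe sets. All 3 arrays labelled 10 mg/kg lay above all 3 labelled 1 mg/kg for 2 genes (2.99%, beside 8.72% of all probe sets) and below them for 11 (16.4%, beside 9.44%). The median difference was -0.0088, beside -0.0009 over all probe sets and -0.014 over the 1005 probe sets of mean 11 or more. Of those 1005, 5.77% lay wholly above and 11.8% wholly below. Among the 61 ribosomal protein genes at that level the shares were 3.28% and 14.8%.

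The low counts at an unadjusted p depended on how the fit treats the spread of bright probe sets. When limma let the spread depend on intensity, a setting added after seeing the data, 4 of 67 genes (5.97%) reached that level in the 1 mg/kg arrays, beside 10.4% of all probe sets, and 8 (11.9%) in the 10 mg/kg arrays, beside 9.70%. In the 1 mg/kg arrays these were Rps2 and Rpl4, with lower values, and Rpl7 and Rps19, with higher values. In the 10 mg/kg arrays they were Rps2, Rpl8, Rpl29, Rpl32 and Rpl37, with lower values, and Rps12, Rps19 and Rpl39, with higher values. The lowest adjusted p among the 67 genes in these 2 comparisons was 0.409.

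For most of the genes the data bounded the difference in array signal closely, and whether bright signals are compressed was not tested. The 95% confidence interval of the difference from saline lay within 0.25 either side of 0 for 52 of 67 genes in the 1 mg/kg arrays and for 51 in the 10 mg/kg arrays, and within 0.5 for 64 and 65. Of all 45037 probe sets, 10225 and 10426 lay within 0.25, and 37610 and 37733 within 0.5. At a mean of 11 or more, 530 and 607 of 1005 probe sets lay within 0.25, beside 51 and 50 of 61 ribosomal protein genes. The median absolute difference was 0.038 in the 1 mg/kg arrays and 0.040 in the 10 mg/kg arrays, beside 0.091 and 0.090 over all probe sets. Among probe sets of mean 11 or more, the 61 ribosomal protein genes had median absolute differences of 0.037 and 0.037, beside 0.058 and 0.048 for all 1005 such probe sets, and a median residual SD of 0.048, beside 0.068.

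**Figure D2:**
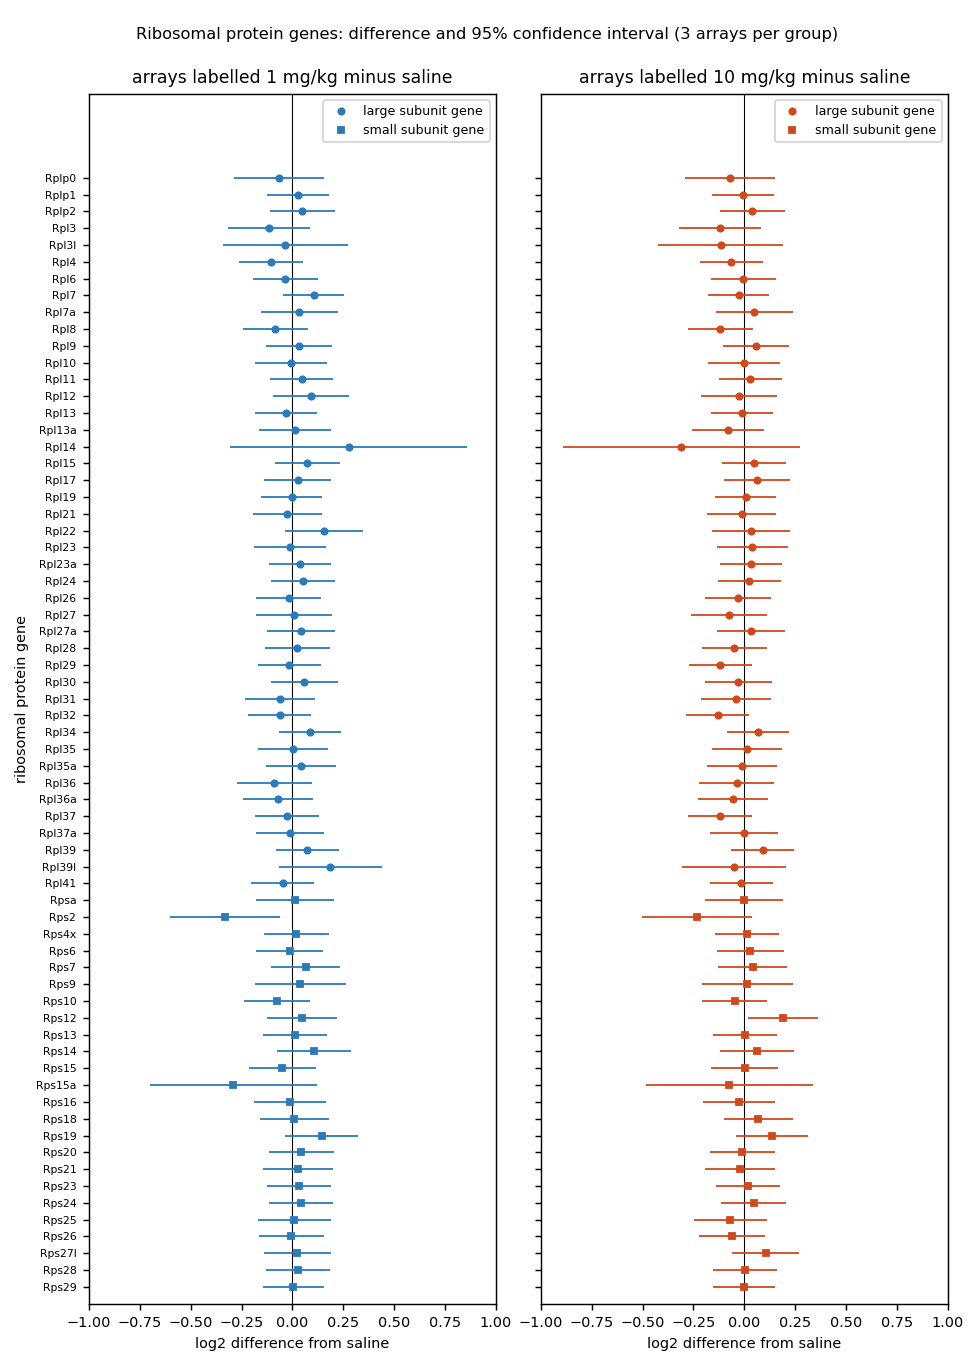
Log2 difference from saline (horizontal) of each of the 67 ribosomal protein genes (vertical) in the 1 mg/kg arrays (left) and the 10 mg/kg arrays (right), with lines for the 95% confidence interval from limma (3 arrays per group) and separate symbols for the large and the small subunit. Only the interval of Rps2 on the left and that of Rps12 on the right leave 0 out.

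**Figure D3:**
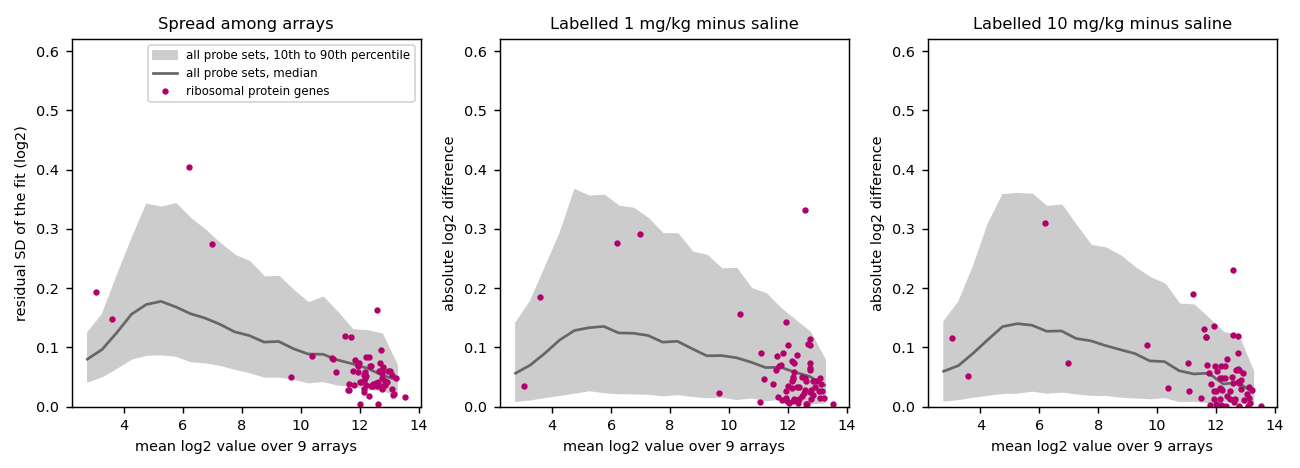
Residual SD of the fit and absolute log2 difference from saline (1 mg/kg arrays, then 10 mg/kg arrays), each against the mean log2 value over 9 arrays. Dots are the 67 ribosomal protein genes, the line is the median of all probe sets and the grey band runs from their 10th to their 90th percentile in steps of 0.5, and 61 of the dots lie at a mean of 11 or more.

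Rps2 had the widest span among the bright genes. It encodes a small subunit protein near the channel through which mRNA enters, and had values of 12.78, 12.89 and 12.67 in saline, 12.37, 12.34 and 12.64 in the 1 mg/kg arrays and 12.67, 12.56 and 12.42 in the 10 mg/kg arrays. All arrays of both MPH groups lay below all saline arrays, the nearest by a margin too small to see at 2 decimals. The difference was -0.33 ± 0.12 (SE, n = 3 per group) in the 1 mg/kg arrays, a fold of 0.795 (limma, adjusted p = 0.436), with a confidence interval of -0.60 to -0.06. In the 10 mg/kg arrays it was -0.23, a fold of 0.852 (adjusted p = 0.559), with an interval of -0.50 to 0.04.

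The other 2 probe sets of Rps2 had differences of the same sign. In the 1 mg/kg arrays they were -0.26, with an interval of -0.48 to -0.03, and -0.35, with an interval of -0.60 to -0.09. In the 10 mg/kg arrays they were -0.12 and -0.15, and the arrays of that group overlapped with saline in both. Probe sets of a gene are read from the same RNA and are not replicates. The difference of the brightest probe set in the 1 mg/kg arrays was recomputed without each of the 6 arrays compared. It was smallest in size, -0.25, without array 2 of that group and largest, -0.48, without its array 3. An unadjusted p of 0.05 was missed in 4 of these 6 omissions, namely without saline array 1 or 2 and without array 1 or 2 of the 1 mg/kg group. The 10 mg/kg difference was -0.15 without saline array 2 and -0.15 without array 3 of the 10 mg/kg group.

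Other values also differed between the groups, not all of them in step with Rps2. The 12 markers of dopamine neurons, among them Th, had a mean level of 8.46 to 8.56 in the 1 mg/kg arrays and 8.58 to 8.65 in the 10 mg/kg arrays, against 8.94 to 9.23 in saline, and 11 of the 12 were lower at an unadjusted p of 0.05 in each comparison. Controls for the 3′ and 5′ ends of Actb, whose gap widens in degraded RNA, lay 1.03 to 1.19 apart in the 6 MPH arrays, against 0.882 to 0.934 in saline. Those of Gapdh lay 0.224 to 0.409 apart, against 0.231 to 0.387. The 3 serotonin neuron markers measured averaged 3.76 to 4.23 in the 1 mg/kg arrays and 3.98 to 5.22 in the 10 mg/kg arrays, against 4.58 to 6.83 in saline, with median differences of -1.90 and -1.60. The 4 thalamus markers averaged 8.47 to 8.96 in the 1 mg/kg arrays and 7.11 to 8.52 in the 10 mg/kg arrays, against 6.68 to 8.38 in saline, with median differences of 1.07 and 0.08. For 7 microglia markers the median differences were -0.05 in the 1 mg/kg and -0.23 in the 10 mg/kg arrays. For 8 oligodendrocyte markers they were -0.05 and -0.27, for 3 blood markers 0.11 and 0.39, and for 8 astrocyte markers -0.04 and -0.05. The part of these values in the difference of Rps2 was not tested. In tissue of mixed cells, fewer cells of a type and less RNA per cell cannot be told apart.

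Rps12, a protein of the head of the small subunit, had values of 11.08, 11.21 and 11.09 in saline, 11.19, 11.18 and 11.14 in the 1 mg/kg arrays and 11.29, 11.29 and 11.37 in the 10 mg/kg arrays. The 10 mg/kg arrays did not overlap with either other group. Their difference from saline was 0.19 (limma, adjusted p = 0.494), with a confidence interval of 0.02 to 0.36. The second probe set of Rps12 read 10.78, 10.69 and 10.80 in the 10 mg/kg arrays, against 10.70, 10.85 and 10.76 in saline, a difference of -0.01 with an interval of -0.20 to 0.17. It overlapped with saline. The brighter of the pair carries the suffix x, the manufacturer's mark for probes that can match other transcripts, and the other does not.

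**Figure D4:**
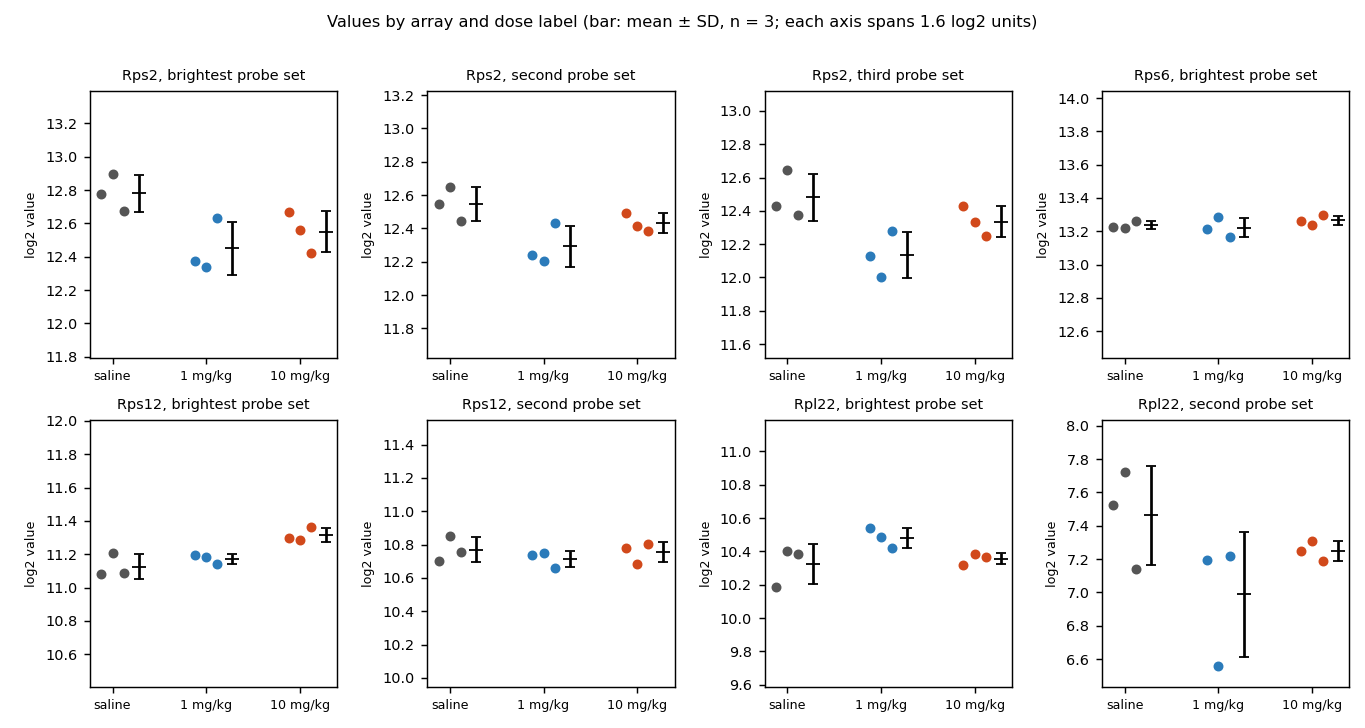
Log2 value of each array (dots) by dose label, with mean and SD beside them (n = 3), for 3 probe sets of Rps2, the brightest of Rps6, and 2 probe sets each of Rps12 and Rpl22, each axis spanning 1.6 log2 units. All 3 probe sets of Rps2 have lower means in both MPH groups than in saline, while the second probe sets of Rps12 and Rpl22 do not repeat the differences of the first, 0.19 for Rps12 in the 10 mg/kg arrays and 0.16 for Rpl22 in the 1 mg/kg arrays.

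Among the other small subunit genes, Rps19, which is often mutated in Diamond-Blackfan anaemia, had values of 11.80, 11.96 and 11.80 in saline, 12.03, 11.96 and 12.01 in the 1 mg/kg arrays and 11.95, 11.99 and 12.02 in the 10 mg/kg arrays. Saline array 2 overlapped with the MPH arrays. The differences from saline were 0.14 (limma, adjusted p = 0.558) and 0.14 (adjusted p = 0.593), and without that array 0.21 and 0.20, both then reaching an unadjusted p of 0.05. These are the largest values when each of the 9 arrays was left out in turn. The smallest were 0.10 and 0.10, and the unadjusted p rose as high as 0.300 and 0.326 (limma). Rps6, the substrate of the S6 kinases, had differences of -0.01 and 0.03, with all 9 arrays between 13.17 and 13.29. For Rpsa, also known as a laminin receptor, the intervals of the difference ran from -0.18 to 0.20 in the 1 mg/kg arrays and from -0.19 to 0.19 in the 10 mg/kg arrays.

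Rps29, a small zinc-binding protein of the small subunit, had values of 13.54, 13.54 and 13.51 in saline, 13.52, 13.54 and 13.55 in the 1 mg/kg arrays and 13.53, 13.53 and 13.53 in the 10 mg/kg arrays. All groups overlapped. It was the brightest of the 67, and 0 of the genes reached the highest value found over all 9 arrays. Each value sums up several probes, so saturation of single probes was not tested. Rps14, a protein of the platform of the small subunit, and Rps10, which lies near the mRNA entry, had 1 mg/kg arrays that did not overlap with saline, with differences of 0.11 and -0.08 (limma, adjusted p = 0.666 and adjusted p = 0.735). Another bright probe set of Rps10 differed from saline by -0.002 in the 1 mg/kg arrays.

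The stalk of the large subunit, which recruits the elongation factors, is made of Rplp0, Rplp1 and Rplp2. For Rplp1, the 9 arrays lay between 13.13 and 13.20, and the intervals of its differences from saline were -0.13 to 0.18 in the 1 mg/kg and -0.16 to 0.15 in the 10 mg/kg arrays. For Rplp2 they were -0.11 to 0.21 and -0.12 to 0.20. Rplp0, often used as a reference gene, had -0.07 in both MPH groups, with intervals of -0.29 to 0.15 in each. Rpl11, which with Rpl5 and 5S ribosomal RNA can bind the p53 regulator Mdm2, had differences of 0.05 and 0.03. Its 1 mg/kg arrays (12.19, 12.19 and 12.16) lay above the saline arrays (12.13, 12.15 and 12.12), with a difference smaller than its standard error of 0.07.

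Several large subunit genes had arrays that did not overlap with saline, by small amounts. Rpl7 averaged 12.10 ± 0.01 in the 1 mg/kg arrays and 11.97 ± 0.01 in the 10 mg/kg arrays, against 11.99 ± 0.01 in saline (SD, n = 3 each), and its 1 mg/kg arrays lay above all others. The difference from saline in the 1 mg/kg arrays was 0.10 (limma, adjusted p = 0.600), and that of the 10 mg/kg from the 1 mg/kg arrays was -0.13 (adjusted p = 0.788). The 2 dimmer probe sets of Rpl7 differed from saline by 0.05 and 0.01 in the 1 mg/kg arrays.

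Rpl8, close to the catalytic centre, Rpl32, and Rpl4, which lines the exit tunnel, had all arrays of both MPH groups below all saline arrays. Rpl8 had differences of -0.09 in the 1 mg/kg arrays and -0.12 in the 10 mg/kg arrays (limma, adjusted p = 0.693 and adjusted p = 0.603). For Rpl32 they were -0.06 and -0.13, and for Rpl4 -0.10 and -0.06. Rpl23a, Rpl34 and the tunnel protein Rpl39 had all arrays of both groups above saline, by 0.09 and 0.07 for Rpl34, by 0.07 and 0.09 for Rpl39, and by 0.04 and 0.03 for Rpl23a. In the 10 mg/kg arrays alone, Rpl29 (-0.12), Rpl37 (-0.12) and Rpl3 (-0.12), the last close to the catalytic centre, lay wholly below saline. None of these passed the adjustment. The 4 probe sets of Rpl23a, all of mean 9 or more, ran from 0.03 to 0.04 in the 1 mg/kg arrays. In the 10 mg/kg arrays they ran from -0.03 to 0.05. Those of Rpl37, 2 of 4 of mean 9 or more, ran from -0.31 to 0.14 in the 10 mg/kg arrays. The second probe set of Rpl39 (mean 3.57) had -0.07 and -0.04. The other genes named here had 1 probe set each.

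Rpl22, a large subunit protein that also binds other RNAs, depended on the probe set. The brightest read 10.54, 10.48 and 10.42 in the 1 mg/kg arrays, against 10.19, 10.40 and 10.38 in saline, without overlap. The difference was 0.16 (limma, adjusted p = 0.549), and 0.08 without saline array 1 or without array 1 of the 1 mg/kg group. The second probe set, with the suffix s for probes shared between genes, read 7.19, 6.56 and 7.22 in the 1 mg/kg arrays, against 7.53, 7.73 and 7.14 in saline, a difference of -0.47 (adjusted p = 0.485) with overlapping arrays. Its paralog Rpl22l1, outside the name rule, differed by 0.02 in the 1 mg/kg and 0.01 in the 10 mg/kg arrays.

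The rule also caught paralogs of other ribosomal protein genes. Rpl3l, the striated muscle form of Rpl3, had a mean of 3.04, near the median of 2.93 of the control probe sets. Rpl39l, a form of Rpl39 known from the male germ line, had 3.58. The highest of these controls, with those richest in G and C left out, read 3.65. Rpl39l read 3.67, 3.87 and 3.62 in the 1 mg/kg arrays and 3.53, 3.42 and 3.50 in the 10 mg/kg arrays, against 3.40, 3.49 and 3.72 in saline, which overlapped with both. Rps27l, a p53-responsive form of Rps27, had 9.70, 9.69 and 9.75 in the 10 mg/kg arrays, against 9.60, 9.62 and 9.60 in saline. That difference was 0.10 (limma, adjusted p = 0.647), while its 2 other probe sets gave -0.02 and 0.02. The X-linked Rps4x and Rpl10 had intervals of -0.14 to 0.18 and -0.18 to 0.17 in the 1 mg/kg arrays.

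Both genes with a dim probe set above background gave wide intervals. Each had 1 single-gene probe set, so a poor probe set and a low mRNA level cannot be told apart. Rpl14 read 6.60, 5.83 and 6.16 in saline, 6.53, 6.77 and 6.12 in the 1 mg/kg arrays and 5.59, 5.92 and 6.15 in the 10 mg/kg arrays. The 3 groups overlapped. Its 10 mg/kg arrays differed from the 1 mg/kg arrays by -0.59 (limma, adjusted p = 0.774), with an interval of -1.17 to -0.00. Rps15a differed from saline by -0.29 in the 1 mg/kg and -0.07 in the 10 mg/kg arrays, with an interval of -0.70 to 0.12 in the 1 mg/kg arrays.

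Among the 61 probe sets that were not the brightest of their gene, the dimmer ones had the larger differences. The 34 of mean 9 or more had median absolute differences of 0.040 in the 1 mg/kg arrays and 0.031 in the 10 mg/kg arrays, and the 27 dimmer ones 0.109 and 0.076. Of the 27, 2 were higher and 1 was lower at an unadjusted p of 0.05 in the 1 mg/kg arrays, and 0 were higher and 2 lower in the 10 mg/kg arrays. These shares, 11.1% and 7.41%, are near the 10.3% and 9.59% of all probe sets. A dim probe set of Rpl17 (mean 4.69) had a difference of 0.34 in the 1 mg/kg arrays (limma, adjusted p = 0.399). The brightest one of Rpl17 had 0.03 there, and another dim one -0.21. A dim probe set of Rps10 (mean 3.86) had -0.37 in both groups, where the brightest had -0.08 and -0.05. The remaining probe set of Rps10, of mean 9 or more, had -0.002 and 0.038. The Rpl17 probe set of mean 4.69 and the Rps10 probe set of mean 3.86 were singled out after their values were seen.

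**Figure D5:**
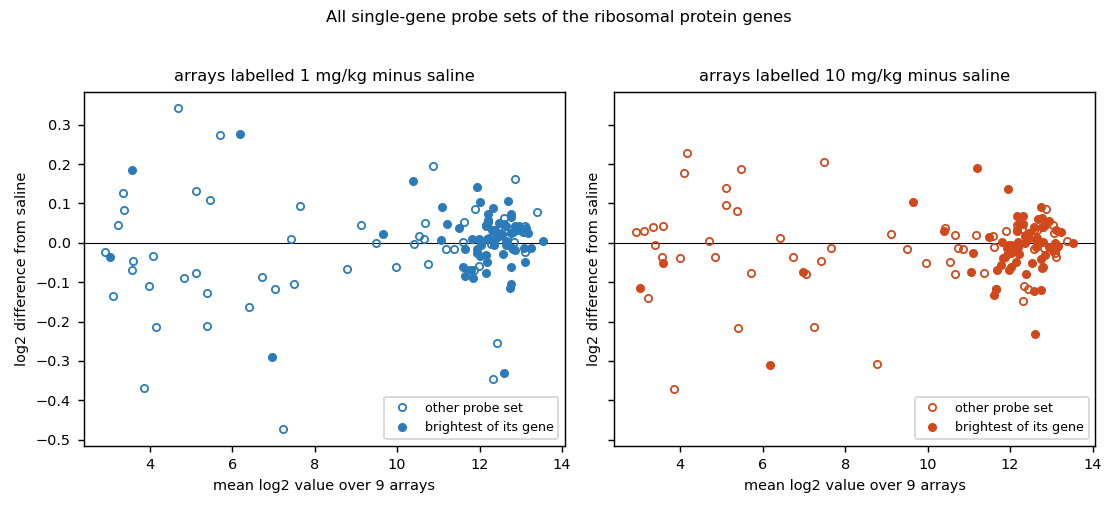
Log2 difference from saline (vertical) against the mean log2 value over 9 arrays (horizontal) for all 128 single-gene probe sets of the ribosomal protein genes, in the 1 mg/kg arrays (left) and the 10 mg/kg arrays (right). Filled circles are the brightest probe set of each gene and open circles the others, and at the bright end the lowest points on the left are the 3 probe sets of Rps2, at -0.33, -0.26 and -0.35.

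By subunit, the median difference in the 1 mg/kg arrays was 0.0070 over the 43 large subunit genes and 0.015 over the 24 small subunit genes, and in the 10 mg/kg arrays -0.012 and 0.0023. The mean over all 67 genes lay lowest in array 1 of the 10 mg/kg group, at -0.033 from its average, where 15 genes had their lowest value and 0 their highest. That array also held the highest mean of markers of cortex and hippocampus (6.72, against 5.51 to 5.87 in the other 8 arrays) and of meninges (6.91, against 5.16 to 6.06), and their part in its level was not tested. Without it, 1 gene in each comparison with saline reached an unadjusted p of 0.05. Array 2 of the 1 mg/kg group had Xist, the RNA of the inactive X, at 9.002, against 2.99 to 4.62 in the other 8, and the Y-linked Eif2s3y at 4.11, against 6.59 to 7.73. Without that array, 0 genes reached that level in the 1 mg/kg arrays and 1 in the 10 mg/kg arrays.

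Genes that work beside the ribosome were read from lists drawn up from their known roles, and none of them passed the adjustment. At an unadjusted p of 0.05, 4.53% of all probe sets were higher and 5.77% lower in the 1 mg/kg arrays, 10.3% together, and 4.08% and 5.51% in the 10 mg/kg arrays, 9.59% together. Of 36 translation factors measured, 0 were higher and 7 lower at that level in the 1 mg/kg arrays (19.4%, median -0.052), and 0 and 2 in the 10 mg/kg arrays (5.56%, median -0.041). The highest difference in the 1 mg/kg arrays was 0.23, for the eIF2 subunit gene Eif2s3x, which did not reach that level. That group holds the array with high Xist and low Eif2s3y, whose part in the value of Eif2s3x was not tested. Eif4b, which assists the helicase of initiation, had -0.24 in the 1 mg/kg and -0.18 in the 10 mg/kg arrays, and Eif5a, which relieves stalled ribosomes, -0.22 and -0.09. For Eif2b2, a subunit of the exchange factor of eIF2, they were -0.39 and -0.35 (limma, adjusted p = 0.416 and adjusted p = 0.459). Elongation factor Eef1a1, whose mRNA carries the same 5′ tract, differed by -0.06 and -0.01. Of 17 further mRNAs with that tract, Eef1a1 and Eif4b included, 0 were higher and 1 lower in the 1 mg/kg arrays, and 1 and 0 in the 10 mg/kg arrays, 5.88% each time and below the share of all probe sets. The one higher in the 10 mg/kg arrays was Vim, which encodes an intermediate filament protein, with differences of 0.50 and 0.62, larger in size than that of Eif4b, the lower one (limma, adjusted p = 0.517 and adjusted p = 0.493).

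Of 70 ribosome assembly genes, 1 was higher and 4 lower in the 1 mg/kg arrays (7.14%, median -0.039), and 0 and 8 in the 10 mg/kg arrays (11.4%, median -0.033). Over all probe sets the shares were 10.3% and 9.59%. The 8 were all lower, beside 5.51% of all probe sets lower and 4.08% higher in the 10 mg/kg arrays. The higher one was the kinase gene Riok1, with 0.17 in the 1 mg/kg arrays. The rRNA methyltransferase Fbl read 8.76, 8.75 and 8.68 in the 1 mg/kg arrays and 8.83, 8.71 and 8.77 in the 10 mg/kg arrays, against 8.89, 9.01 and 8.96 in saline. Both MPH groups lay wholly below saline, by -0.23 and -0.19 (limma, adjusted p = 0.425 and adjusted p = 0.510). Rrp12, a factor of subunit export, had -0.15 and -0.33 (adjusted p = 0.501 and adjusted p = 0.387).

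In the mTOR and S6 kinase list, 3 of 19 genes were higher and 3 lower in the 1 mg/kg arrays (31.6%, median 0.015). In the 10 mg/kg arrays 1 was higher and 3 lower (21.1%, median -0.022). Over all probe sets the shares were 10.3% and 9.59%. The higher ones in the 1 mg/kg arrays were Deptor (0.31), an inhibitor of mTOR, Tsc1 (0.31), part of a complex that restrains it, and the kinase gene Pdpk1 (0.26), each with all 3 arrays above saline. The lower ones were Rptor, Lamtor3 (-0.20) and the S6 kinase gene Rps6kb2 (-0.39). Rptor, the scaffold of mTOR complex 1, read 7.31, 7.21 and 7.18 in the 1 mg/kg arrays and 7.33, 7.25 and 7.26 in the 10 mg/kg arrays, against 7.50, 7.60 and 7.55 in saline. Neither group overlapped with saline, and the differences were -0.32 and -0.27 (limma, adjusted p = 0.378 and adjusted p = 0.424). Of the 73 proteins of the separate mitochondrial ribosome, 1 was higher and 2 lower in the 1 mg/kg arrays (median -0.016), and 0 and 3 in the 10 mg/kg arrays (median -0.025), 4.11% in each and below the share of all probe sets. The higher one was the dim Mrpl47 (mean 4.08), with 0.45 in the 1 mg/kg arrays and 0.05 in the 10 mg/kg arrays, and Mrpl38 was among the lower in both, with -0.36 and -0.32. These lists come from the same arrays as the marker and Actb values given for Rps2, whose part here was not tested either.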

How the data were processed

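The authors deposited log2 intensities, made by Robust Multichip Average (RMA; version not given in the sources used here). It equalises the distributions of the arrays, so a shift shared by all genes would be removed. ComBat on the replicates is named in the methods, and whether it was applied to these values is not stated. Of 45141 probe sets, 104 controls were left out. The fit (limma 3.58.1, R 4.3.3) held 3 groups plus the replicate number as a block, which comes from that batch step, over 45037 probe sets, with Benjamini-Hochberg adjustment and a threshold of 0.05. Arrays that share a number deviated in opposite directions (r from -0.626 to -0.132), and the F of the replicate number had a median of 0.073, against 0.828 with no replicate effect. Scripts were tested on simulated data. Separate litters are not stated, so p-values measure the spread between these arrays, whose number limits the precision.

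The members and lists were chosen with earlier results of these data known. The genes named had the smallest p with the same sign in all 3 replicate numbers (up to 6 per direction against saline, 3 between MPH groups), or were the 3 brightest or dimmest, stalk proteins, Rpl11, Rps6, Rpsa, Rpl14 or paralogs. Outside these, Rps15a, Rpl19, Rpl23a, the sequences of Rpl28, Rps18, Rpl7a and Rpl26, and the list examples were named after seeing the data. Alternatives were no block, ComBat, other normalizations, filters, variance models, array weights, other probe sets and leaving out each array.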

Additional observations from a re-analysis of the deposited data

How the results depend on the processing

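No ribosomal protein gene passed the adjustment in any comparison under any setting tried, except after a ComBat correction (rewritten from its published method) without the block, where 1 passed in each comparison with saline: Rps2 for 1 mg/kg (limma, adjusted p = 0.0446) and Rps12 for 10 mg/kg (adjusted p = 0.0417). That setting called 3152, 2738 and 716 of all probe sets, and the degrees of freedom used by the correction are not counted in it. If the deposited values already hold a ComBat step, which is not stated, this setting corrected them a second time. The fit without the block would then leave those degrees of freedom uncounted too. Without the replicate block 0 of the 67 passed, with 54 and 115 of all probe sets called against saline. At an unadjusted p of 0.05, where 1 gene was found in each comparison, the fit without the block gave 4 for 1 mg/kg, 7 for 10 mg/kg and 4 between the MPH groups (5.97%, 10.4% and 5.97%), beside 18.5%, 17.7% and 12.9% of all probe sets. In the same order, ComBat gave 7, 9 and 6 (10.4%, 13.4% and 8.96%), beside 27.0%, 26.3% and 20.5%. The intensity trend with the robust option gave 4, 6 and 3, beside 10.3%, 9.62% and 6.43%, the trend alone 4, 8 and 3, beside 10.4%, 9.70% and 6.53%, and leaving out the suffixes x and s 3, 0 and 4 of 59 genes, beside 10.3%, 9.59% and 6.39%. For 10 mg/kg, array weights gave 2, and centring or averaging the probe sets of a gene gave 0. Between the MPH groups, centring gave 2, and the filter on dim probe sets or genes of mean 9 or more gave 0. Leaving out 1 array gave 0 to 2, 0 to 2 and 0 to 3, with 0 without saline array 1 or array 1 or 2 of the 1 mg/kg group for 1 mg/kg, and 0 without saline array 1 or 3 or array 3 of the 10 mg/kg group for 10 mg/kg. The count was 2 for 1 mg/kg without saline array 3 or array 3 of that group, and 2 for 10 mg/kg without saline array 2 or array 3 of the 1 mg/kg group. Between the MPH groups it was 3 without array 3 of the 1 mg/kg group and 0 without its array 1 or 2 or array 2 of the 10 mg/kg group. The trend alone and the limit to mean 9 or more were added after seeing the data.

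The median difference for 1 mg/kg, 0.012, was 0.0057 when probe sets of a gene were averaged and 0.0027 without the suffixes x and s. Leaving out 1 array gave 0.00098 (without saline array 3) to 0.028 (without saline array 1), with 0.0024 without array 2 and 0.018 without array 3 of the 1 mg/kg group, and 0.024 without saline array 2. For 10 mg/kg the range was -0.021 to 0.0077, positive without saline array 1 or 2 or array 2 of that group, and between the MPH groups it was -0.025 to 0.0006. These 2 medians, -0.0047 and -0.0088, were 0.0092 and 0.0044 after a second quantile normalization and -0.020 and -0.024 after centring, and array weights gave 0.0021 for 10 mg/kg, so their sign is not settled. Alternatives were computed gene by gene only for a part of the 67 genes, those the text names most. Among their differences that reached the standard error, 4 values turned their sign: Rpl22 when its probe sets were averaged (-0.16 for 1 mg/kg, 0.067 between the MPH groups), and Rps12 (-0.013) and Rps27l (-0.015) for 10 mg/kg without the suffixes x and s. These settings read other probe sets of the gene.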
